A study of Mus musculus with 12 samples.

Results

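Glu-CTC fragments of 30 to 32 nt are 5′ pieces of the glutamate tRNA with anticodon CTC, found here in mouse sperm, that end at the border of the anticodon loop. They were picked by sequence from a table of 2971 unique small RNA sequences. The most abundant sequence of that table, of 29 nt, gave the family its start. The most abundant sequence of at least 34 nt that begins with it served as the template. A sequence joined the family when it aligned inside the template with 2 or fewer edits (substituted, inserted or deleted bases), which 822 sequences did. The members are the 275 of these whose alignment starts at base 1 of the template and whose length is 30, 31 or 32 nt. Of them 121 have 30 nt, 118 have 31 nt and 36 have 32 nt. Mean level over all 12 libraries chose the start sequence and the template. Sums that hold either of them (29 nt, under 30 nt, over 32 nt and all reads from base 1) therefore rest in part on levels the rule used, and their size is a description. The family was named from the anticodon read in its longest sequence, and the table itself names no sequence.

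The 4 groups of 3 libraries were compared, written here as genotype and diet: ATF7+/- LPD, ATF7+/- CD, WT LPD and WT CD. ATF7+/- males are heterozygous for the gene of ATF7, a stress-responsive transcription factor, and WT males are wild type. LPD is low protein diet and CD is control diet, fed from week 3 to week 12 of age. All 12 libraries are of histone replacement-completed sperm, in which protamines have taken the place of histones, taken from caudal epididymis and vas deferens, sonicated mildly and spun through 82% Percoll. Strain is not given in the sources used here, nor whether a library is 1 animal or a pool, so p-values measure only the spread between these samples, which may be technical. A table of tRNA fragments holds no marker genes, so the labelled cell type was not checked, and fewer cells and less RNA per cell cannot be told apart.

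Transfer RNAs are cut in or beside the anticodon loop by stress-responsive ribonucleases, which leaves a 5′ and a 3′ piece. Mature mouse sperm carry mostly 5′ fragments, with glutamate and glycine tRNAs as the main sources, and the load of such fragments changes as sperm pass through the epididymis. Paternal diet is known from earlier work in mice to alter it. In tRNA numbering the 30 and 31 nt members end in the last bases of the 5′ strand of the anticodon stem, and the 32 nt members end on the first base of the loop.

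Levels are given in RPM, the authors' normalised value, which scales reads to the same total in every library. The members summed to a mean of 127008 RPM, 13.0% of all reads of the table. The 30 nt members held 61635.9 RPM (48.5% of the members' level), the 31 nt members 57851.8 RPM (45.5%) and the 32 nt members 7520.75 RPM (5.92%). Among Glu-CTC reads that start at base 1, 29 nt made up 45.6%, 30 nt 15.0%, 31 nt 14.1%, 32 nt 1.84% and 33 nt 4.97%. The 32 nt class was thus less abundant than 31 and 33 nt. The lengths just outside the limits summed to 186651 RPM at 29 nt and 20348 RPM at 33 nt.

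The 3 members without an edit, 1 at each length, carried most of the reads. Together they held 93997.8 RPM, 74.0% of the members' level, while 192 members with 1 edit held 19.8% and 80 members with 2 edits held 6.22%. Single members had a median of 16.3 RPM, and 33 of them reached 100 RPM. No member was at 0 counts in any library, and all 275 passed the filter of a mean of 1 RPM. Of the members 86 lay under 10 RPM, where 1 library can rest on a few reads.

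The 30 nt members summed to 54162.5, 59668.1 and 57535.3 RPM in ATF7+/- LPD sperm, 71288.9, 80555.0 and 40915.2 RPM in ATF7+/- CD sperm, 64766.5, 61833.5 and 63525.2 RPM in WT LPD sperm and 64445.3, 64917.5 and 56018.1 RPM in WT CD sperm. ATF7+/- CD sperm gave both the highest and the lowest of these sums, and the other 3 groups lay within the range of that group. The 31 nt members summed to 45192.8, 46671.1 and 46119.3 RPM in ATF7+/- LPD sperm, 71624.2, 74560.8 and 30309.6 RPM in ATF7+/- CD sperm, 59431.4, 61876.0 and 53678.0 RPM in WT LPD sperm and 74747.0, 73948.9 and 56062.5 RPM in WT CD sperm. Replicate 3 was the lowest library within each CD group, and ATF7+/- LPD sperm lay below WT LPD sperm in all 3 libraries. The 32 nt members summed to 6938.41, 6365.32 and 6605.19 RPM in ATF7+/- LPD sperm, 8510.4, 9952.36 and 4053.22 RPM in ATF7+/- CD sperm, 9883.36, 8109.47 and 8207.74 RPM in WT LPD sperm and 7637.38, 7140.28 and 6845.86 RPM in WT CD sperm. Here the lowest WT LPD library lay above the highest WT CD library.

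Over all members, 30 nt made up 52.0% ± 1.00 of the level in ATF7+/- LPD sperm, 50.1% ± 3.80 in ATF7+/- CD sperm, 48.6% ± 1.89 in WT LPD sperm and 45.2% ± 1.71 in WT CD sperm (SD, n = 3 each). The share of 31 nt was 41.9% ± 0.559 in ATF7+/- LPD sperm, 44.2% ± 3.61 in ATF7+/- CD sperm, 44.7% ± 2.09 in WT LPD sperm and 49.6% ± 2.10 in WT CD sperm (SD, n = 3 each). The 30 nt share was above the 31 nt share in all ATF7+/- LPD libraries, and in WT CD sperm the 31 nt sum was above the 30 nt sum in all 3 libraries, in replicate 3 only slightly.

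A set of 9 members differs from the template in the last base alone, and they held 18658.5 RPM, 14.7% of the members' level. By length these changed last bases held 9207.19 RPM at 30 nt, 7818.32 RPM at 31 nt and 1633.04 RPM at 32 nt. Among reads that match the template up to the last base, the last base was the template's in 83.0% at 30 nt, 84.9% at 31 nt and 74.7% at 32 nt. By this measure changes at the 3′ end were most frequent at 32 nt, a difference that was not tested. The order depends on the reads they are set against. The next shorter unedited sequences, of 29, 30 and 31 nt, held 147849, 45135.9 and 43995.9 RPM. Set against those, the changed last bases were least frequent at 32 nt. At 32 nt the template's base stood at the end in 73.4% ± 0.936 of these reads in ATF7+/- LPD sperm, 76.4% ± 1.43 in ATF7+/- CD sperm, 76.5% ± 0.595 in WT LPD sperm and 72.4% ± 3.47 in WT CD sperm (SD, n = 3 each).

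Members with 1 internal substitution were many and rare. There were 172 of them at 31 positions, and they summed to 6302 RPM, 4.96% of the members' level. Their share lay between 4.73 and 5.09% in every library. The table listed 74 of the 87 possible internal substitutions at 30 nt, 77 of 90 at 31 nt and 21 of 93 at 32 nt. Transitions held 68.2% of their level with a median of 0.172% of the unedited member of the same length, against a median of 0.0338% for transversions. T-to-C changes alone held 32.6%. G-to-A changes held 17.3%, T-to-A changes 10.7% and A-to-G changes 10.6%. By length the internal substitutions held 2962.68 RPM at 30 nt, 3118.33 RPM at 31 nt and 220.718 RPM at 32 nt. For the 71 substitutions listed at both 30 and 31 nt, the percentage at 31 nt was a median of 0.999 times that at 30 nt, in a range of 0.601 to 1.17 times. Both lengths come from the same libraries and share the positions compared.

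The remaining members carry 2 substitutions or an inserted or deleted base. There are 64 that have a changed last base and 1 more substitution (0.588% of the level), and 5 have 2 internal substitutions (4.03%). The 22 members aligned with an insertion or deletion held 1.72% of the level.

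Depth ran from 2198744 to 6870039 reads per library, of which the members held 165517 to 874438. The ATF7+/- LPD libraries had 4828916 to 6870039 reads and the WT LPD libraries 2278880 to 2874170, so depth and genotype cannot be told apart on LPD. Reads of the family that lack the first bases made up 4.80, 1.85 and 3.11% of family reads in ATF7+/- LPD sperm, 9.70, 7.16 and 4.39% in ATF7+/- CD sperm, 2.14, 2.66 and 3.25% in WT LPD sperm and 18.02, 11.6 and 3.16% in WT CD sperm. CD replicates 1 and 2 of both genotypes were the 4 highest. The same 4 libraries had the highest sums of the members, and CD replicate 3 of both genotypes stood apart from them. The part of these differences in the results below was not tested, and results that turn on them are also given without those libraries, a choice made after the data were seen.

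The summed level of the members did not pass a test in any comparison. It was 106294, 112704 and 110260 RPM in ATF7+/- LPD sperm, 151423, 165068 and 75278 RPM in ATF7+/- CD sperm, 134081, 131819 and 125411 RPM in WT LPD sperm and 146830, 146007 and 118926 RPM in WT CD sperm. The mean was 109753 ± 3235 RPM in ATF7+/- LPD sperm, 130590 ± 48385 RPM in ATF7+/- CD sperm, 130437 ± 4497 RPM in WT LPD sperm and 137254 ± 15878 RPM in WT CD sperm (SD, n = 3 each). Within the Glu-CTC reads that start at base 1, the members' share was 28.4% ± 2.17 in ATF7+/- LPD sperm, 31.6% ± 8.89 in ATF7+/- CD sperm, 29.1% ± 0.763 in WT LPD sperm and 34.98% ± 7.20 in WT CD sperm (SD, n = 3 each). CD replicates 1 and 2 of both genotypes had shares of 36.3 to 39.2%, and the other 8 libraries had 21.4 to 30.5%. Averaged over genotypes the diet difference in this share was −4.55 percentage points, with a two-sided exact permutation p of 0.19 and 0.56 after Benjamini-Hochberg adjustment over the 28 tests of sums and shares. Of those 28 tests, 2 had a p under 0.05 and none an adjusted p under 0.05. A comparison of 3 against 3 libraries cannot give a p below 0.1.

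In wild type sperm on low protein diet, no member was called by edgeR's quasi-likelihood test at an adjusted p of 0.05, where 2.52% of all sequences were called. An unadjusted p under 0.05 was found for 7 members, 3 higher and 4 lower in WT LPD sperm, 2.55% of the members beside 21.8% of all sequences. DESeq2 called 2 members (11.0% of all sequences) and limma none (0% of all sequences). Of the 36 members of 32 nt, 25 had a fold change above 0, as did 16 of the 118 members of 31 nt. Over all 2971 sequences, 1285 did. Members are not independent, so counts by sign are a description. The median log2 fold change was 0.32 at 32 nt, −0.21 at 31 nt and 0.05 at 30 nt, beside −0.10 over all sequences, 0.20 for the family's shorter sequences from base 1 and 0.84 for its longer ones. At 32 nt, 10 of 36 members were higher in all 3 WT LPD libraries than in any WT CD library, and over all members 25 of 275 were, 9.09% against 8.45% of all sequences. In the other direction, 9 members were lower in all 3, 8 of them of 31 nt, which is 3.27% against 11.0% of all sequences.

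The share of 32 nt among the members was 7.37, 6.15 and 6.54% in WT LPD sperm, against 5.20, 4.89 and 5.76% in WT CD sperm. The groups did not overlap and the means were 1.41 percentage points apart, for which the exact permutation test gave p 0.1, its floor (0.4 after adjustment). Averaged over both genotypes the difference was 0.892 points with an exact permutation p of 0.02 and an adjusted p of 0.28. By kind of edit, the median log2 fold change was −0.27 for changed last bases and 0.03 for 1 internal substitution. The family's sequences over 32 nt summed to 46850.6, 35796.1 and 34486.5 RPM in WT LPD sperm, against 16448.4, 21788.7 and 26790.6 RPM in WT CD sperm, with no overlap. Those under 30 nt summed to 268081, 287410 and 282572 RPM in WT LPD sperm, against 212127, 204980 and 300239 RPM in WT CD sperm, and those groups overlapped.

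In ATF7+/- sperm no member was called for diet by edgeR, where 0.101% of all sequences were. An unadjusted p under 0.05 was found for 17 members, all lower in ATF7+/- LPD sperm, 6.18% of the members beside 16.9% of all sequences. DESeq2 called 3, all lower (1.51% of all sequences in either direction), and limma none (0% of all sequences). The median log2 fold change of the members was −0.27, beside 0.03 over all sequences, and it was −0.16 at 30 nt, −0.37 at 31 nt and −0.26 at 32 nt. Of 118 members of 31 nt, 4 had a fold change above 0, beside 1562 of all 2971 sequences. In single libraries, 6 members were lower in all 3 ATF7+/- LPD libraries (8.25% of all sequences were) and 2 were higher in all 3 (13.0% of all sequences were).

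The direction of this diet effect rested on the CD libraries used. The summed level of the members differed by −20837 RPM between ATF7+/- LPD and ATF7+/- CD sperm over all libraries, and by 34474.7 RPM without CD replicates 1 and 2 of both genotypes. The median log2 fold change of the members was 0.58 without those libraries, beside 0.18 over all sequences. Leaving out CD replicate 3 of both genotypes instead gave 112 called members, all lower in ATF7+/- LPD sperm, where 29.7% of all sequences were called in either direction. Leaving out ATF7+/- CD replicate 3 alone gave 8 (2.91% of the members, beside 2.39% of all sequences). The members' own sums set these CD libraries apart. The change of sign and the larger counts therefore follow in part from the choice of libraries and are not separate evidence on direction.

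Averaged over both genotypes, edgeR called 3 members for diet, 1 higher and 2 lower in LPD sperm. That compares with 11.9% of all sequences called, 1.55% higher and 10.3% lower, and it is a smaller share of the members. All 3 called members are among the 22 that aligned with an insertion or deletion. The first base of such a member need not be base 1 of the template, although its alignment starts there.

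These 3 calls were not stable. DESeq2 called 6 members (17.8% of all sequences) and limma none (0% of all sequences). With 1 library left out, the count was 0 without WT CD replicate 1 (3.43% of all sequences were called) or 2 (7.51%). It was also 0 without WT LPD replicate 3 (6.09%) or ATF7+/- CD replicate 1 (1.88%) or 2 (5.39%). Without WT LPD replicate 1 or 2 or ATF7+/- LPD replicate 2 or 3 it was 0 as well, with 0% of all sequences called. It was 10 without WT CD replicate 3 (24.0% of all sequences were called), 53 without ATF7+/- CD replicate 3 (26.9%) and 2 without ATF7+/- LPD replicate 1 (13.2%). Of the 118 members of 31 nt, 1 had a fold change above 0 over both genotypes, beside 1454 of all 2971 sequences. The median of these 31 nt members was −0.30 beside −0.01 over all sequences. Over all members the median was 0.38 without CD replicates 1 and 2 of both genotypes, beside 0.07 over all sequences.

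On low protein diet, levels in the ATF7+/- libraries lay below those in the WT libraries for a large share of the members. Of 275 members, 109 were lower in all 3 ATF7+/- LPD libraries than in any WT LPD library, 39.6% against 14.2% of all sequences. Only 9 members were higher in all 3, 3.27% against 21.3% of all sequences. The members are not independent of each other. Those with 1 internal substitution held 4.73 to 5.09% of the members' level in every library. The counts therefore largely repeat the difference in the summed level. By length, 64 of 118 members of 31 nt, 16 of 36 of 32 nt and 29 of 121 of 30 nt were lower without overlap. The family's sequences from base 1 outside these lengths gave 63 of 292 under 30 nt and 62 of 101 over 32 nt. All Glu-CTC reads from base 1 averaged 386929 RPM in ATF7+/- LPD sperm, against 448836 RPM in WT LPD sperm. The members' share of those reads differed by −0.624 percentage points (exact permutation p 0.8, adjusted 0.896). The lower level was thus not particular to the members. The median log2 fold change of the members was −0.25, beside 0.11 over all sequences, and with TMM scaling it was −0.33 beside 0.03.

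No single member was called by edgeR in this comparison, where 0.202% of all sequences were. An unadjusted p under 0.05 was found for 20 members, 5 higher and 15 lower in ATF7+/- LPD sperm. That is 7.27% of the members beside 17.0% of all sequences, of which 11.2% were higher and 5.86% lower. DESeq2 called 2, both lower (2.49% of all sequences in either direction), and limma none (0.202% of all sequences). When edgeR was fitted to the 6 LPD libraries alone, 17 members were called, 5 higher and 12 lower, beside 12.5% of all sequences. By kind of edit, the median log2 fold change was −0.30 for 1 internal substitution and −0.10 for changed last bases. The summed level differed by −20684 RPM with no overlap, for which the exact permutation test gave p 0.1, its floor (0.4 after adjustment).

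Genotype on control diet gave no called member by edgeR, where 0.0% of all sequences were called. An unadjusted p under 0.05 was found for 7 members, 4 higher and 3 lower in ATF7+/- CD sperm, beside 4.21% of all sequences. Neither DESeq2 nor limma called any, where both called 0% of all sequences. There were 2 members lower in all 3 ATF7+/- CD libraries, 0.727% against 2.73% of all sequences, and 0 were higher in all 3, against 1.21% of all sequences. The median log2 fold change was −0.02, beside −0.05 over all sequences. The sums at 30, 31 and 32 nt were each lowest in replicate 3 of the ATF7+/- CD libraries.

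Averaged over both diets, no member was called for genotype by edgeR, where 0.101% of all sequences were, and 15 had an unadjusted p under 0.05 (5.45%, beside 11.3% of all sequences). DESeq2 called 1 member (1.48% of all sequences) and limma none (0.101% of all sequences).

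For the difference between the diet effects of the genotypes, edgeR called no member, where 0.0% of all sequences were called. Among the members 5 had an unadjusted p under 0.05 (1.82%, beside 9.83% of all sequences). DESeq2 called none (0.101% of all sequences), nor did limma (0%). The median log2 difference was −0.33 for members with 1 internal substitution, of which 12 of 172 were above 0. It was 0.32 for changed last bases, of which 8 of 9 were above 0. Over all sequences it was 0.16, with 1735 of 2971 above 0.

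The share of members' reads that carry 1 or 2 edits had diet differences of opposite sign in the 2 genotypes. It was 26.4, 26.9 and 27.3% in ATF7+/- LPD sperm, against 24.6, 24.3 and 26.1% in ATF7+/- CD sperm, with no overlap. In WT sperm it was 25.3, 24.8 and 25.1% on LPD, against 28.96, 27.4 and 25.1% on CD. The diet difference was 1.86 percentage points in ATF7+/- sperm and −2.06 points in WT sperm (exact permutation p 0.1 and 0.3, adjusted 0.4 and 0.667). The 2 diet effects differed by 3.92 points, with an exact permutation p of 0.01 that was 0.28 after adjustment over the 28 tests. Without CD replicates 1 and 2 of both genotypes they differed by 0.756 points (exact permutation p 0.6). The share of changed last bases was 15.2, 15.6 and 16.2% in ATF7+/- LPD sperm, 13.2, 13.0 and 14.9% in ATF7+/- CD sperm, 13.8, 13.5 and 13.4% in WT LPD sperm and 18.3, 16.0 and 13.7% in WT CD sperm. The share with 1 internal substitution averaged 4.94% ± 0.0722 in ATF7+/- LPD sperm, 5.004% ± 0.134 in ATF7+/- CD sperm, 5.01% ± 0.0528 in WT LPD sperm and 4.86% ± 0.136 in WT CD sperm (SD, n = 3 each). Within the WT CD group, the library with the most reads that lack the first bases also had the most changed last bases. Among the ATF7+/- CD libraries the one with the fewest such reads had the most changed last bases, and neither relation was tested.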

How the data were processed

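Small RNA of mouse sperm was read at 36 bp in 12 libraries. The authors deposited 1 table with raw read counts and RPM per unique sequence, and all sample columns were used. RPM is the authors' scaling to each library's total, which was recovered as count divided by RPM. The genome build is mm10 per the submitters' processing notes, and no aligner or counter is given in the sources used here. Alignment used edlib 1.3.9.post1 (Python 3.11.15).

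Counts were fitted with edgeR 4.0.16 quasi-likelihood (R 4.3.3) over all 12 libraries and 2971 sequences, with 1 mean per group, library sizes set to the authors' totals and Benjamini-Hochberg adjustment over all sequences (threshold 0.05). A filter of a mean of 1 RPM removed 0 sequences. The procedure was tested on simulated data whose spread was set lower than that of these libraries, so that test does not show its power here. In these libraries the biological coefficient of variation was 0.326. Sums and shares were compared by two-sided exact permutation tests. Alternatives were DESeq2 1.42.0, limma 3.58.1 on log2(RPM + 1), TMM scaling, a mean of 10 RPM, the compared groups alone, a replicate block and each library left out. A level of 3 counts is 0.437 to 1.36 RPM, a floor for counting error alone, as PCR copies were not marked.

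Over all sequences, same-numbered CD libraries of the 2 genotypes deviated together (r 0.547, 0.143 and 0.522). No label states this pairing, which was seen in the data. Over the members alone the same pairs had r −0.047, 0.066 and 0.014. Such an r leaves out a shift that all members share, so it cannot show that the members lack the pairing. The unlike-numbered WT CD replicate 1 and ATF7+/- CD replicate 2 had r 0.227 over all sequences, above the 0.143 of the replicate 2 pair. No other 2 groups had all 3 same-numbered pairs over 0.1. The naming rule (unedited, called and most abundant edited members, or those with the smallest p) picks single members, which are not reported here, so values are given by length and kind of edit. The members and lists were chosen with earlier results of these data known.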

Additional observations from a re-analysis of the deposited data

Results flagged for a closer look

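The diet effect on the share of members' reads with 1 or 2 edits differed between the genotypes. The effect was 3.92 percentage points higher in ATF7+/- sperm than in WT sperm. The two-sided exact permutation test exchanged genotype labels within each diet (p 0.01, adjusted p 0.28 over 28 tests). Without CD replicates 1 and 2 of both genotypes the difference was 0.756 points (exact permutation p 0.6), and without CD replicate 3 of both it was 5.50 points. All 3 ATF7+/- LPD libraries lay above all ATF7+/- CD libraries, and WT LPD libraries lay below 2 of the 3 WT CD libraries. This is the only one of the sums and shares whose difference between genotypes had a p under 0.05, and it did not pass the adjustment.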

How the results depend on the processing

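Leaving out CD libraries turned the sign of some values. Without CD replicates 1 and 2 of both genotypes, the summed level differed by 11510.5 RPM for diet in WT, 34474.7 in ATF7+/-, 22992.6 over both and 22964.1 for the interaction, each opposite in sign to the value over all libraries. The members' share of reads from base 1 then differed by 2.39, 7.07 and 4.73 points for diet in WT, in ATF7+/- and over both. The 32 nt share for genotype on CD was −0.372 points, and the edit share was 1.01 points for genotype on CD, 0.363 for diet over both and 1.39 for genotype over both. Without CD replicate 3 of both, the summed level for genotype on CD was 11827.7 RPM and the 32 nt share for genotype over both 0.0724 points. The cause was not tested.

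Without CD replicates 1 and 2, members called were, each with the share of all sequences called, 1 for diet in ATF7+/- (2.39%), 16 for genotype on LPD (12.4%), 0 for diet over both (1.82%) and 28 for genotype over both (5.02%). Without CD replicate 3 they were 26 for diet in WT (34.1%), 112 in ATF7+/- (29.7%), 97 over both (42.8%), 2 for genotype on CD (1.28%), 15 on LPD (9.53%), 5 over both (1.75%) and 4 for the interaction (5.55%). DESeq2 called 2 for diet in WT (11.0%), 3 in ATF7+/- (1.51%), 6 over both (17.8%), 2 for genotype on LPD (2.49%) and 1 over both (1.48%). For diet over both limma called 0 (0%), and the 6 LPD libraries alone gave 17 for genotype (12.5%). Leaving out 1 library gave 0 to 3 for diet in WT, 0 to 8 in ATF7+/-, 0 to 53 over both, 0 to 2 for genotype on LPD and 0 to 3 over both, and in the fits with the highest of these counts 19.4, 2.39, 26.9, 0.539 and 0.572% of all sequences were called. Outside diet over both, every count above 0 came without ATF7+/- CD replicate 3, apart from the 3 for diet in WT without WT CD replicate 3.

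Leaving out 1 library also changed signs. The summed level ran from −23903.5 to 20991.6 RPM for genotype on CD, −22293.9 to 153.6 over both and −41675.9 to 3219.16 for the interaction. The share of reads from base 1 ran from −7.53 to 1.75 points for genotype on CD, −1.65 to 0.514 on LPD, −4.08 to 0.563 over both and −2.37 to 6.91 for the interaction. Leaving out 1 CD library breaks a pair of same-numbered libraries. Over the members alone these pairs had r −0.047, 0.066 and 0.014, a measure that leaves out any shift all members share. The summed level was lowest in replicate 3 of each CD group, 118926 RPM in WT CD and 75278 RPM in ATF7+/- CD. Within each of the 3 pairs the share of reads from base 1 was lower in ATF7+/- CD. It was 37.2% against 39.1% in WT CD, 36.3% against 39.2% and 21.4% against 26.7%. For genotype over both the 32 nt share ran from −0.254 to 0.0511 and the edit share from −0.698 to 0.262, and the edit share for diet over both from −0.608 to 0.352.

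With the replicate number as a block, 2 members were called for diet over both (0.727%, beside 12% of all sequences). The block gave 0 members in every other comparison. There 2.69% of all sequences were called for diet in WT and at most 0.101% in the rest. With the 6 CD libraries alone it gave 0 members for genotype on CD, where 0.0337% of all sequences were called. TMM scaling and a mean of 10 RPM moved no count of called members by over 1.5 times.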
